A study of Mus musculus with 22 samples.

Results

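Keratins of simple epithelia and proteins of the desmosome were followed through preimplantation development as 9 genes, chosen by gene symbol from the 55335 genes of a table of FPKM, which scale sequenced fragments to the length of the transcript and to the total mapped in the library. They were the type II keratins Krt7 and Krt8, the type I keratins Krt18 and Krt19, the desmosomal cadherins Dsg2 (desmoglein 2) and Dsc2 (desmocollin 2), the armadillo proteins Jup (plakoglobin) and Pkp2 (plakophilin 2), and the plakin Dsp (desmoplakin). Keratin filaments are obligate heteropolymers in which a type I chain pairs with a type II chain. In a desmosome, cadherins of adjoining cells meet between the membranes, plakoglobin and plakophilins bind their cytoplasmic tails, and desmoplakin links this plaque to keratin filaments. Both structures are known from the trophectoderm, the outer epithelium of the blastocyst, in which Krt8 and Krt18 are the classical keratins.

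The 22 RNA-seq libraries came from mouse embryos of B6D2F1 females mated with B6D2F1 males. Each library came from a pool of 15 embryos, so that no value belongs to a single embryo or cell lineage. Embryos were collected at 43 to 44 h (2-cell), 78 h (morula) or 94 h (blastocyst) post hCG injection, with 4 control libraries per stage and 3, 3 and 4 H2A.Z KD libraries, respectively. For the KD, zygotes received about 10 pl of a mix of siRNAs against H2A.Z at 20 µM, 20 to 22 h post hCG. The authors name noninjected controls for quantitative PCR, but how the control embryos of these libraries were treated is not stated, so an effect of injection and an effect of the siRNAs cannot be told apart. The authors state in general that experiments were repeated, but whether the pools of a group came from separate collections is not stated for these libraries, and p-values measure the spread between them. Read counts are not part of the values, so no counting interval is given. A relative depth, from the steps in which FPKM times length rose in 13500 single-exon genes, was 14.9 to 22.1 in control and 17.2 to 21.3 in KD blastocysts, and 18.1 to 28.8 in the libraries of the earlier stages; between 11.4% and 22.7% of the low values lay within 0.02 of a whole step.

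H2afz, the gene of H2A.Z.1 and the target of the KD, was measured first. Its FPKM was 1244, 1236, 905 and 1178 in control 2-cell embryos and 415, 139 and 112 in KD 2-cell embryos. In morulae it was 1158, 1336, 1511 and 1421 in controls and 30.3, 25.7 and 29.0 in KD embryos, and in blastocysts 2656, 2431, 1945 and 2055 in controls and 64.2, 67.2, 53.2 and 57.6 in KD embryos. Every KD library lay below every control library of its stage, and the fall passed the test in morulae (log2 fold change -5.41 ± 0.17 SE, adjusted p = 9.71e-08) and blastocysts (-5.19 ± 0.20 SE, adjusted p = 3.63e-08) but not in 2-cell embryos (-2.53 ± 0.38 SE, adjusted p = 0.543). H2afv, the paralog that encodes H2A.Z.2, also fell in morulae (-2.93 ± 0.15 SE, adjusted p = 2.93e-06) and blastocysts (-1.86 ± 0.22 SE, adjusted p = 7.95e-05). The stage labels were checked against markers: summed FPKM of 5 genes of the 2-cell embryo was 328 to 595 in control 2-cell embryos, 5.58 to 17.0 in control morulae and 0.428 to 3.36 in control blastocysts, while that of 7 trophectoderm markers was 18.0 to 28.7, 69.4 to 102 and 706 to 915.

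In control embryos, Krt8 was under 1 FPKM and Krt18 at 0.691 to 2.30 at the 2-cell stage; both were higher in morulae and were the most abundant of the 9 genes in blastocysts. A gene is said below to have risen, fallen or passed where its adjusted p was under 0.05, and to have been called where its log2 fold change was also above 1 in size; fold changes are differences of log2(FPKM + 1), which understate the change of low genes. Between control 2-cell embryos and control morulae, 5 of 8 members tested rose (Krt7, Krt8, Krt18, Pkp2 and Dsg2; 39% of 15697 genes rose) and 1 fell (Dsc2; 41.3% of all genes fell), with 3 called higher (Krt8, Krt18 and Pkp2; 25.5% of all genes); with a pseudocount of 0.1, 6 were called in place of 3, with Krt7 and Dsg2 higher and Dsc2 lower besides, where 33.8% of all genes were called higher and 36.0% lower. Between control morulae and control blastocysts, 6 of 8 rose (24.5% of all genes) and 5 were called higher (Krt8, Krt18, Dsp, Dsc2 and Dsg2; 10.9% of all genes), and the median change of the 8 was 2.30 against 0 over all genes. These 8 had at least 1 FPKM in 3 or more libraries, which favours genes that are high at some stage; Krt19 did not and was tested nowhere. Krt7, Dsp, Dsc2 and Dsg2 reached 1 FPKM in no 2-cell or morula library, so these 4 of the 6 that rose to the blastocyst met the filter by way of blastocysts; without the filter their adjusted p was at most 0.000188.

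Krt8, the type II chain that pairs with Krt18 in simple epithelia, had an FPKM of 0.156, 0.144, 0.298 and 0.410 in control 2-cell embryos, 32.4, 19.3, 28.8 and 27.7 in control morulae and 225, 431, 425 and 289 in control blastocysts. The 3 stages did not overlap, and Krt8 rose by 4.32 ± 0.19 (SE, adjusted p = 2.70e-15) to the morula and by a further 3.60 ± 0.19 (SE, adjusted p = 1.25e-12) to the blastocyst on the log2 scale. Krt18 read 0.744, 1.93, 2.30 and 0.691 FPKM in control 2-cell embryos, 47.8, 54.7, 67.4 and 80.9 in control morulae and 730, 992, 827 and 646 in control blastocysts. Its stages were also apart, with rises of 4.59 ± 0.23 (SE, adjusted p = 2.99e-14) and 3.67 ± 0.23 (SE, adjusted p = 2.17e-11). Of all genes, 35.8% were higher without overlap in morulae than in 2-cell embryos, and 23.8% in blastocysts than in morulae. By mean FPKM, Krt18 ranked 111 and Krt8 308 among the 30898 genes above 0 in control blastocysts.

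Krt7, a second type II keratin of simple and ductal epithelia, was far lower. It was 0 in 3 of 4 control 2-cell libraries and 0.0249 in the other, 0.186 to 0.555 in control morulae and 0.696 to 1.21 in control blastocysts, and both rises passed (0.37 ± 0.10 SE, adjusted p = 0.00259, and 0.55 ± 0.10 SE, adjusted p = 0.000133). Krt19, the type I keratin without the usual tail domain, was listed at 0 in all 7 2-cell libraries and did not exceed 0.643 in any library. Krt8 and Krt18 together made up 99.0% to 100% of the summed FPKM of the 4 keratins in the 22 libraries.

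Among the 5 desmosome members, the plakophilin had the largest difference of log2(FPKM + 1) between the 2-cell stage and the morula. Pkp2 was 0.258, 0.293, 0.246 and 0.359 FPKM in control 2-cell embryos, 6.97, 3.95, 4.01 and 3.57 in control morulae and 5.01, 5.07, 5.53 and 4.87 in control blastocysts. It rose to the morula (1.96 ± 0.14 SE, adjusted p = 1.90e-11), and between morula and blastocyst its values overlapped (0.17 ± 0.14 SE, adjusted p = 0.358; 0.30 without morula replicate 1). The morula mean of 4.62 ± 1.58 (SD, n = 4) was raised by the single library at 6.97.

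Both cadherins and desmoplakin were called higher between the morula and the blastocyst. Dsg2 was 0.665, 0.209, 0.243 and 0.193 FPKM in control morulae and 9.50, 9.75, 9.28 and 10.1 in control blastocysts, a rise of 2.94 ± 0.14 (SE, adjusted p = 4.09e-13). Dsc2 was 0.119, 0.0452, 0.0885 and 0.131 in control morulae and 5.82, 6.36, 6.55 and 5.36 in control blastocysts (2.58 ± 0.15 SE, adjusted p = 5.68e-12). Dsp, which carries the link to the filaments, was 0.405, 0.457, 0.446 and 0.234 in control morulae and 3.96, 5.51, 5.28 and 5.15 in control blastocysts (2.03 ± 0.13 SE, adjusted p = 2.50e-11). In all 3, each blastocyst library lay above each morula library, as in 23.8% of all genes. At the 2-cell stage Dsc2 had stood higher than in morulae, at 0.248 to 0.441 FPKM, and its fall to the morula (-0.36 ± 0.15 SE, adjusted p = 0.0302), like the rise of Dsg2 from 0 or 0.0223 (0.35 ± 0.14 SE, adjusted p = 0.0329), was a difference of under 1 FPKM; these passes were lost in 6 and 4 of 26 alternatives, respectively.

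Jup, which serves adherens junctions as well as desmosomes, did not pass in either step (0.16 ± 0.23 SE, adjusted p = 0.534, and 0.23 ± 0.23 SE, adjusted p = 0.480). Its control values were 0.181 to 1.20 FPKM in 2-cell embryos, 0.383 to 1.69 in morulae and 0.406 to 1.50 in blastocysts. Both differences depended on single control libraries. The first was 0.10, 0.057 and 0.33 without 2-cell replicates 1, 2 and 4 and -0.013 and 0.25 without morula replicates 1 and 7. The second was 0.40 and 0.14 without morula replicates 1 and 7 and 0.38 without blastocyst replicate 1.

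In control blastocysts the means thus ran from Krt18 (799 ± 149 FPKM, SD, n = 4) and Krt8 (343 ± 102) to Dsg2 (9.67 ± 0.374), Dsc2 (6.02 ± 0.540), Pkp2 (5.12 ± 0.287), Dsp (4.97 ± 0.692), Jup (1.08 ± 0.476), Krt7 (1.01 ± 0.238) and Krt19 (0.340 ± 0.205). The libraries of Krt18, Krt8 and Dsg2 did not overlap with those of the next gene in this order. Those of Dsc2, Pkp2 and Dsp overlapped with their neighbours among these 3, and so did those of Jup and Krt7.

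**Figure D1:**
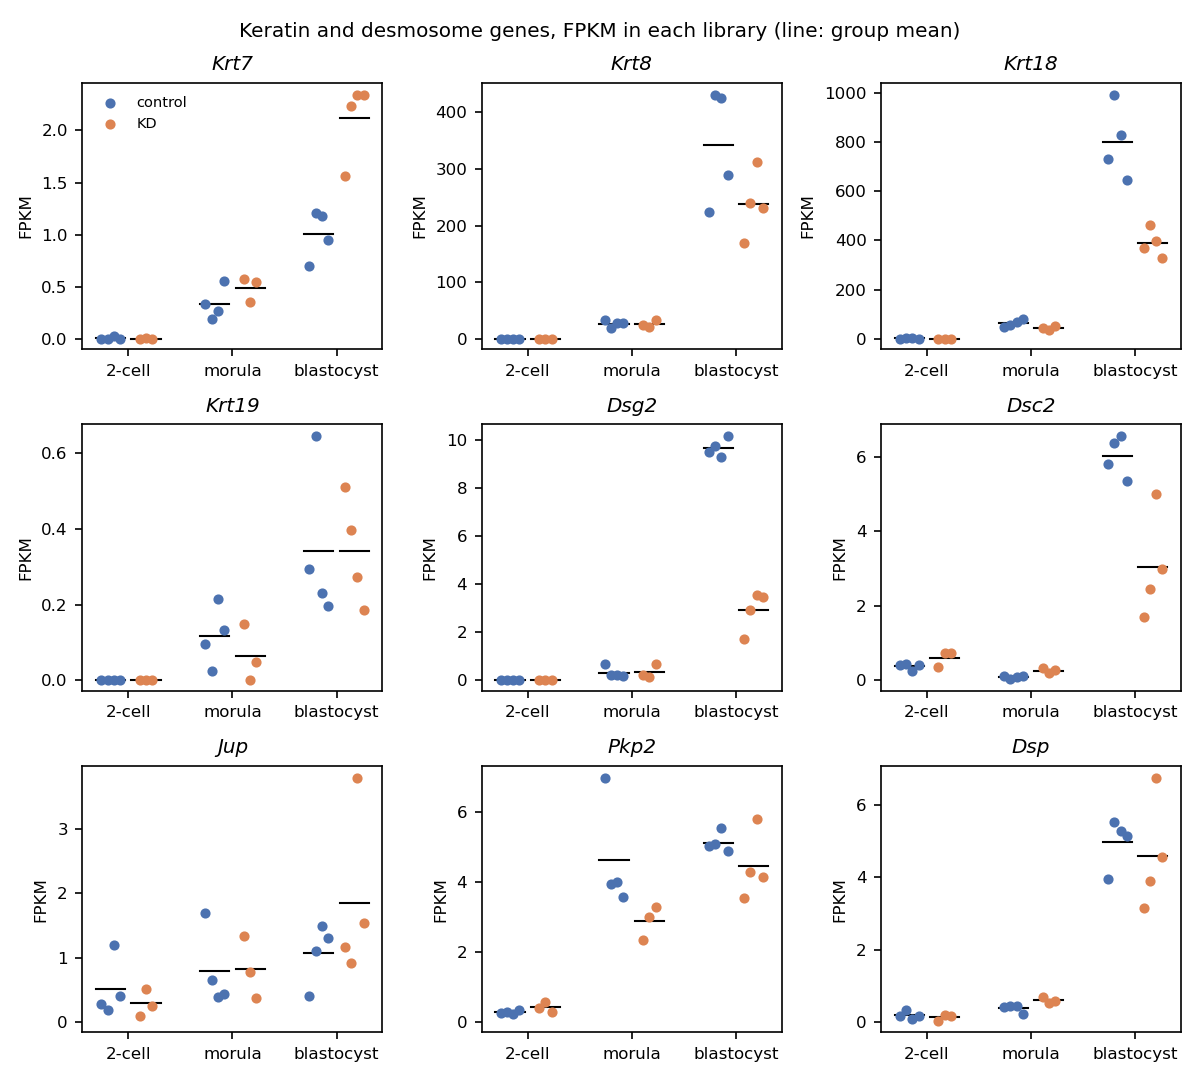
FPKM (vertical axis, from 0, a separate scale per gene) of the 9 genes in each of the 22 libraries, by stage, with control libraries in blue, H2A.Z KD libraries in orange and group means as lines. In blastocysts the KD libraries of Krt18 (329 to 461), Dsc2 (1.70 to 5.00) and Dsg2 (1.71 to 3.55) lay below all control libraries and those of Krt7 (1.57 to 2.34) above them.

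The KD was compared with the control within each stage. At the 2-cell stage, 1 member, Krt18, passed the filter on low values; it was 0.979, 0.697 and 1.12 FPKM in KD embryos, within the control range, and did not pass (-0.22 ± 0.26 SE, adjusted p = 0.895; -0.35 and -0.37 without control replicates 1 and 5 and -0.12 without KD replicate 2). With limma, 0 of 12160 genes passed at this stage (0% higher and 0% lower), and 701 had an unadjusted p under 0.05. H2afz, the target of the KD, did not pass either (-2.53 ± 0.38 SE, adjusted p = 0.543). The lack of passes therefore does not show a lack of effect. The other 8 members were below 1 FPKM in all KD 2-cell libraries.

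In morulae, 0 of 3 members tested passed with limma, where 4.23% of 10989 genes rose and 9.04% fell, and 3352 genes, 0 of the 3 members among them, had an unadjusted p under 0.05. Krt8 was 24.7, 20.8 and 33.4 FPKM in KD morulae and overlapped with the control (0.081 ± 0.21 SE, adjusted p = 0.824), and its sign turned with FPKM as deposited (-0.040). It was -0.063, 0.13 and 0.13 without control replicates 2, 7 and 8 and 0.15, 0.23 and -0.13 without KD replicates 1, 2 and 6. Krt18 was 44.5, 36.9 and 54.2, also with overlap (-0.33 ± 0.24 SE, adjusted p = 0.378; -0.51 and -0.17 without control replicates 1 and 8, -0.20 and -0.50 without KD replicates 2 and 6). Pkp2 was 2.36, 3.00 and 3.28, below all control libraries, but the difference did not pass (-0.40 ± 0.19 SE, adjusted p = 0.186); 15.9% of all genes tested in morulae had KD libraries that lay below all control libraries.

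The other 6 members were under the filter in morulae and are given as levels. Dsc2 was 0.324, 0.207 and 0.274 FPKM in KD morulae and at most 0.131 in control morulae. Dsp was 0.707, 0.527 and 0.576 in KD morulae and at most 0.457 in control morulae. For both, the KD libraries lay above the control libraries at levels under 1 FPKM, and these differences were not tested within the stage; of the genes that were, 12.2% had KD libraries above all control libraries. Values of Krt7, Krt19, Jup and Dsg2 overlapped between KD and control.

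In KD blastocysts, the keratin Krt18 and the cadherins Dsg2 and Dsc2 were lower than in control blastocysts and Krt7 was higher, while Dsp, Pkp2, Jup and Krt8 did not pass. Of 8 members tested, 3 fell (19.8% of 11828 genes) and 1 rose (16.7%); 2 were called lower (7.69%) and 0 higher (6.06%), and with a pseudocount of 0.1, 4 were called in place of 2, Dsc2 (-1.06) and Krt7 (1.02) among them, where 9.36% of all genes were called higher and 11.6% lower. In 3 members the KD libraries lay below all control libraries (19.4% of all genes) and in 1 above them (16.1%). The median change of the 8 members was -0.34 and that of all genes 0.0047, and with limma 5439 genes had an unadjusted p under 0.05. The authors report that fewer KD embryos formed blastocysts and that the KD did not change the total count of cells per morula or blastocyst. Each library pools all cells of its embryos, so fewer cells of a type and less RNA per cell cannot be told apart. Whether the KD pools held only embryos that had formed blastocysts is not stated. The part of a choice of embryos or of a delay in development was not tested.

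Dsg2 changed most. It was 1.71, 2.93, 3.55 and 3.48 FPKM in KD blastocysts against 9.28 to 10.1 in controls, so that the highest KD library had less than any control library. The mean of 2.92 ± 0.850 (SD, n = 4) in KD embryos was 0.302 of the control mean, and the log2 fold change was -1.47 ± 0.18 (SE, adjusted p = 0.000127). Dsc2, the partner cadherin, was 1.70, 2.45, 5.00 and 3.00 FPKM in KD blastocysts against 5.36 to 6.55 in controls (-0.86 ± 0.21 SE, adjusted p = 0.00692). One KD library, replicate 5, came near to the control range of Dsc2, and the means, 3.04 ± 1.41 and 6.02 ± 0.540 (SD, n = 4 each), had a ratio of 0.504.

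Krt18 was 369, 461, 399 and 329 FPKM in KD blastocysts against 646 to 992 in controls, again with no overlap. The ratio of the means was 0.488 and the log2 fold change -1.02 ± 0.18 (SE, adjusted p = 0.00126). This change lay close to the size required for a call: it was -0.93 without control replicate 4, -0.93 without KD replicate 6 and -0.98 without KD replicate 5. Leaving out either of the first 2 took the members called from 2 to 1, and leaving out KD replicate 5 kept the count at 2, with Dsc2 (-1.02) called in place of Krt18. The adjusted p of Krt18 was at most 0.00614 with any of the 8 blastocyst libraries left out.

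Krt8, the filament partner of Krt18, was 170, 241, 313 and 231 FPKM in KD blastocysts and 225 to 431 in controls. The groups overlapped, and the difference of -0.49 ± 0.21 (SE, adjusted p = 0.0794) did not pass, with a 95% interval from -0.94 to -0.047 that holds for a single gene. It did pass without control replicate 1, the lowest control library (-0.63, adjusted p = 0.0332). It also passed with a batch term made from ranges of replicate numbers (adjusted p = 0.0347) and in 1 fit of all 22 libraries (adjusted p = 0.0350). Over all libraries left out in turn its adjusted p ran from 0.0332 to 0.203. A difference between the changes of Krt8 and Krt18 was not tested.

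Krt7 went the other way, at 1.57, 2.24, 2.34 and 2.34 FPKM in KD blastocysts against 0.696, 1.21, 1.18 and 0.945 in controls. All KD libraries lay above all controls (0.64 ± 0.15 SE, adjusted p = 0.00679), and the ratio of the means was 2.11. Krt7 had at least 1 FPKM in 4 KD and 2 control libraries, so it met the filter by way of the KD group, in which it was high; without the filter its adjusted p was 0.0155. Even so, the mean of 2.12 ± 0.374 FPKM (SD, n = 4) in KD blastocysts was small beside that of Krt8 in the same embryos, 239 ± 58.6 (SD, n = 4). Krt19 was 0.508, 0.396, 0.271 and 0.186 FPKM in KD and 0.292, 0.643, 0.230 and 0.196 in control blastocysts, which overlapped.

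The plaque genes did not pass in blastocysts. Dsp was 3.14, 3.88, 6.73 and 4.54 FPKM in KD blastocysts, on both sides of the control range of 3.96 to 5.51 (-0.13 ± 0.18 SE, adjusted p = 0.626). Pkp2 was 3.55, 4.28, 5.81 and 4.13 (-0.18 ± 0.16 SE, adjusted p = 0.412), and Jup 1.16, 0.925, 3.79 and 1.54 (0.39 ± 0.25 SE, adjusted p = 0.241). KD replicate 5 had the highest value of the 4 KD libraries for Dsp, Pkp2, Jup, Dsc2, Dsg2 and Krt8. Without it the difference was 0.15 for Jup and -0.25 for Dsp; without control replicate 1 it was 0.24 for Jup, and without KD replicate 1 -0.019 for Dsp. The 95% intervals of the differences were -0.52 to 0.27 for Dsp, -0.53 to 0.17 for Pkp2 and -0.15 to 0.94 for Jup.

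**Figure D2:**
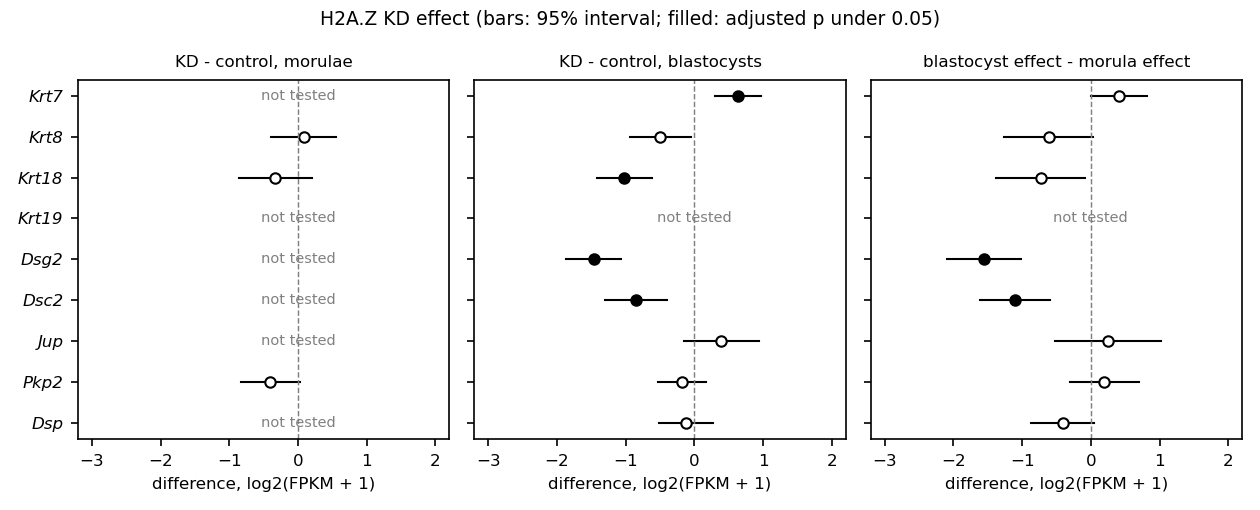
Differences of log2(FPKM + 1) (horizontal axis) between H2A.Z KD and control morulae (left), KD and control blastocysts (middle) and between these effects (right), with points for limma estimates, filled where the adjusted p was under 0.05, and bars for 95% intervals of each gene alone. In blastocysts Dsg2 (-1.47), Krt18 (-1.02) and Dsc2 (-0.86) lay below 0 and Krt7 (0.64) above 0; the difference between the stages passed for Dsg2 (-1.55) and Dsc2 (-1.10).

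Whether the effect of the KD differed between morulae and blastocysts was tested in 1 fit of the 15 libraries of these stages. It did for 2 of 8 members, Dsg2 (-1.55 ± 0.26 SE, adjusted p = 0.00111) and Dsc2 (-1.10 ± 0.24 SE, adjusted p = 0.00760); both were called lower, against 4.12% of 12727 genes called lower and 6.32% that passed lower. Both had at least 1 FPKM in 0 of the 7 morula and in all 8 blastocyst libraries, so they met the filter by way of the stage in which they were high, and the added 1 shrinks their log2 differences in morulae. They also passed without the filter (adjusted p = 0.00550 and 0.0233) and with a pseudocount of 0.1 (adjusted p = 0.0270 and 0.00410). With a block for replicate numbers, Dsg2 passed but Dsc2 did not. With FPKM as deposited, the median of all genes in this comparison shifted to 0.11. Dsg2 was 0.229, 0.156 and 0.683 FPKM in KD morulae, on both sides of the control range. Between the stage means, Dsc2 was 62.9 times as high in blastocysts as in morulae in control and 11.3 times in KD embryos. For Krt18 the difference between the stages did not pass (-0.73 ± 0.31 SE, adjusted p = 0.133), nor did it for Krt8 (-0.61 ± 0.31 SE, adjusted p = 0.208; -0.40 without KD morula replicate 6), Dsp (-0.41 ± 0.22 SE, adjusted p = 0.235), Krt7, Jup or Pkp2. With the batch term made from ranges of replicate numbers it passed for Krt18 (-0.83, adjusted p = 0.0330). Without KD blastocyst replicate 1, the count of members called fell from 2 to 1, since Dsc2 was then at -0.95.

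The ratio of type II to type I keratins, the sum of Krt7 and Krt8 over the sum of Krt18 and Krt19 in FPKM, is given as a description. It was 0.684, 0.357, 0.430 and 0.348 in control morulae and 0.568, 0.575 and 0.627 in KD morulae. In blastocysts it was 0.309, 0.436, 0.516 and 0.448 in controls and 0.464, 0.526, 0.789 and 0.708 in KD embryos. Among these 4 keratins, type I FPKM exceeded type II in all 22 libraries, and the KD and control libraries overlapped in both stages. In control 2-cell embryos the 50 other keratin genes, which this ratio leaves out, summed to 12.8 to 16.6 FPKM. The share of Krt8 and Krt18 in all FPKM was 0.132% to 0.216% in control and 0.0861% to 0.121% in KD blastocysts.

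Other genes of these structures were given as lists. Of 12 other desmosome genes, 1 was tested after the 2-cell stage: Perp, a membrane protein of desmosomes, which rose from 0.214 ± 0.148 FPKM in control 2-cell embryos to 44.5 ± 7.89 in control morulae and 91.6 ± 18.8 in control blastocysts (SD, n = 4 each; log2 fold changes 5.07 and 1.03, adjusted p = 5.35e-19 and 2.00e-06). In KD embryos it was 51.4 ± 1.06 FPKM in morulae (SD, n = 3; 0.34 ± 0.13 SE, adjusted p = 0.118) and 104 ± 4.47 in blastocysts (SD, n = 4; 0.22 ± 0.15 SE, adjusted p = 0.292). In morulae and blastocysts Perp was thus more abundant than any of the 5 desmosome members, and Pkp3 and Ppl, the next of the list, had means over 22 libraries of 0.273 and 0.118 FPKM.

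Of 50 other keratin genes, 4 were tested in any stage. Krt10, a type I keratin known from the suprabasal epidermis, was 4.10 to 7.17 FPKM in control and at most 3.25 in KD blastocysts. All KD libraries lay below the controls and the fall passed (-0.81 ± 0.22 SE, adjusted p = 0.0137); in morulae it did not (-0.53 ± 0.18 SE, adjusted p = 0.0763). Krt28 and Krt84, with means of 2.87 ± 0.854 and 4.06 ± 0.367 FPKM in control 2-cell embryos (SD, n = 4 each), fell to the morula (-1.09 and -2.35, adjusted p = 1.06e-06 and 4.01e-15), and so did Krt12 (-1.91, adjusted p = 2.49e-13). Krt10 rose in control embryos in both steps (0.48, adjusted p = 0.0237, and 1.13, adjusted p = 3.43e-05).

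Of 10 filament and linker genes, 2 were tested in morulae and 3 in blastocysts, and the lowest adjusted p in the KD was that of Dst in blastocysts (0.43 ± 0.17 SE, adjusted p = 0.0641), a plakin relative of Dsp. The 3 with the highest mean over all 22 libraries, the lamin genes Lmna and Lmnb1 and the plakophilin relative Pkp4, had means of 7.71, 2.40 and 0.392 FPKM in control blastocysts. The intermediate filament gene Vim did not exceed a group mean of 0.665 FPKM. Of 7 adherens junction genes, all were tested, with 1 higher in KD morulae (Afdn, 0.73 ± 0.16 SE, adjusted p = 0.0151; in blastocysts -0.92 ± 0.35 SE, adjusted p = 0.0594, and for the difference between the stages -1.67 ± 0.44 SE, adjusted p = 0.0199) and 1 lower in KD blastocysts (Vcl, -0.51 ± 0.18 SE, adjusted p = 0.0449). Over all genes tested, 4.23% rose in KD morulae and 19.8% fell in KD blastocysts. Cdh1, the E-cadherin of adherens junctions, did not pass in KD blastocysts (-0.34 ± 0.19 SE, adjusted p = 0.189), nor did Ctnna1 (-0.10 ± 0.16 SE, adjusted p = 0.653) or Ctnnb1 (0.52 ± 0.35 SE, adjusted p = 0.275).

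Markers of the cell types of the embryo were given as lists as well. Of 7 trophectoderm markers, all were tested in blastocysts, where Elf5 (-1.23 ± 0.19 SE, adjusted p = 0.000510) and Id2 (-1.33 ± 0.21 SE, adjusted p = 0.000533) fell and Tfap2c (0.96 ± 0.23 SE, adjusted p = 0.00674) and Tead4 (0.85 ± 0.22 SE, adjusted p = 0.00989) rose. Cdx2 (0.045 ± 0.23 SE, adjusted p = 0.900), Gata3 (-0.29 ± 0.17 SE, adjusted p = 0.199) and Eomes (-0.48 ± 0.24 SE, adjusted p = 0.136) did not pass. Over all genes tested in blastocysts, 19.8% fell and 16.7% rose. The summed FPKM of the list was 897, 915, 746 and 706 in control and 339, 415, 335 and 368 in KD blastocysts, and most of it was Id2, at 755 ± 111 and 299 ± 53.5 (SD, n = 4 each). No marker of this list was at 0 in all libraries of a blastocyst group. Group means exceeded 1 FPKM for 7 markers in control and 6 in KD blastocysts, so a marker could meet the filter by way of controls. Values without the filter are not given for this list. The difference between the stages passed lower for Id2 (-2.21 ± 0.35 SE, adjusted p = 0.000890) and Elf5 (-1.31 ± 0.23 SE, adjusted p = 0.00157). It passed higher for Tfap2c (1.10 ± 0.30 SE, adjusted p = 0.0235), and the other markers did not pass. Elf5 was under the filter within morulae and met it by way of blastocysts. The added 1 shrinks the log2 difference of Elf5 in morulae.

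Of 5 inner cell mass markers, 3 were tested in morulae and 4 in blastocysts. Nanog fell in KD morulae (-2.23 ± 0.37 SE, adjusted p = 0.00647) but did not pass in KD blastocysts (0.29 ± 0.21 SE, adjusted p = 0.288), and the difference between the stages passed (2.49 ± 0.45 SE, adjusted p = 0.00202). Klf4 rose in KD blastocysts (0.61 ± 0.20 SE, adjusted p = 0.0310); Pou5f1 did not pass in either stage. Their summed FPKM was 114, 136, 223 and 136 in control and 141, 156, 286 and 201 in KD blastocysts, with Nanog the most abundant. Of 5 primitive endoderm markers, 1 was tested in each of the later stages, Gata6, and did not pass (blastocysts: 0.73 ± 0.35 SE, adjusted p = 0.125); Gata4 and Pdgfra had means over 22 libraries of 1.32 and 0.461 FPKM. Of 5 markers of the 2-cell embryo, 3 were tested in blastocysts: Zfp352 (1.56 ± 0.29 SE, adjusted p = 0.00157) and Tcstv3 (2.01 ± 0.56 SE, adjusted p = 0.0145) rose in KD blastocysts, and the sum of the 5 was 2.63, 3.36, 0.428 and 2.07 FPKM in control and 8.31, 19.1, 4.09 and 27.8 in KD blastocysts, with Tcstv3 the most abundant. Tcstv1, the third tested, did not pass (0.72 ± 0.35 SE, adjusted p = 0.127) and had a mean of 20.7 FPKM over the 22 libraries. Group means exceeded 1 FPKM for 0 of the 5 in control and 3 in KD blastocysts, so the filter favoured genes high in KD blastocysts. Values without the filter are not given for these markers. The part of these cell types and stages in the changes of Krt7, Krt18, Dsc2 and Dsg2 was not tested.

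Cells from outside the embryo were looked for as well. Of 8 cumulus cell markers, none was tested within morulae or blastocysts, their sum stayed at or below 0.373 FPKM in morulae and blastocysts, the means of Tnfaip6 and Star over 22 libraries were 0.545 and 0.259 FPKM, and Has2, Ptx3 and Fshr were at 0 in all libraries of these stages. Of 4 genes of red blood cells, Hba-a1 and Hba-a2 rose in KD morulae (1.20 ± 0.26 SE and 1.12 ± 0.25 SE, adjusted p = 0.0172 and 0.0179) and KD blastocysts (0.79 ± 0.21 SE and 0.61 ± 0.19 SE, adjusted p = 0.00985 and 0.0259). Among all genes tested, 4.23% rose in KD morulae and 16.7% in KD blastocysts. Group means exceeded 1 FPKM for 1 of the 4 in control and 2 in KD blastocysts, so a gene could meet the filter by way of KD blastocysts. Values without the filter are not given for these 4 genes. The sum of the 4 was 5.57, 2.43, 2.05 and 4.16 FPKM in control and 14.0, 8.91 and 6.37 in KD morulae. In blastocysts it was 1.29, 1.56, 2.13 and 3.11 FPKM in control and 3.56, 5.87, 4.96 and 3.73 in KD blastocysts, with Hba-a1 the most abundant, and Hbb-bs and Hbb-bt were at 0 in all 22 libraries.

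The genes with patterns most like those of 3 members were taken by Pearson's r of log2(FPKM + 1) over the 15 morula and blastocyst libraries, in which stage accounts for most of the spread. For Krt8 they were Krt8-ps (r = 0.994), Epcam (0.992), Pgm1 (0.990), Klf6 (0.988) and Tubb5 (0.986). For Krt18 they were Akr1b8 (0.994), Gjb5 (0.991), Sdcbp2 (0.990), Dppa1 (0.988) and Gm43552 (0.987). For Dsp they included Epcam (0.985), Il10rb (0.985), Plekhb2 (0.983) and Krt8 (0.980). Epcam, an adhesion protein of epithelia, was thus named for both Krt8 and Dsp, and Gjb5 is a connexin of gap junctions.

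Promoters of Krt8, Krt18 and Dsp are shown because these were the members called higher between control morulae and blastocysts among the 5 of 9 matched in the table of RefSeq promoters used here (GRCm38.p6; Krt7, Krt8, Krt18, Dsp and Jup). Krt19, Pkp2, Dsc2 and Dsg2 were not in this table. Their 250 bases before the RefSeq start were searched on both strands for 7 motifs: a TATA box (TATAAA), an Sp1 box (GGGCGG), a TEAD motif (CATTCC), an AP-1 motif (TGANTCA), an AP-2 motif (GCCNNNGGC), a GATA motif (AGATAA) and a CDX motif (TTTATNG). Of 32851 such windows, 12.4% held the TATA box, 32.7% the Sp1 box, 12.6% the TEAD, 6.75% the AP-1, 13.7% the AP-2, 9.99% the GATA and 9.81% the CDX letters. The Krt8 window held the GATA letters, that of Krt18 the AP-2 letters, and that of Dsp the Sp1 box at 4 places, 1 of which ran into a match to the AP-2 letters. No other of these letters were found in the 3 windows. A match is a description and not a site. The sequences are shown 5′ to 3′ on the strand of the gene, as far as they lie before the annotated gene, with matches in capitals: for Krt8 chr15:102004483-102004592 (minus strand), for Krt18 chr15:102027966-102028179 (plus strand) and for Dsp chr13:38151044-38151293 (plus strand).
Krt8: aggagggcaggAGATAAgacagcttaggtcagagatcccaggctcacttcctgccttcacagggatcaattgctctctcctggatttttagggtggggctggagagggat
Krt18: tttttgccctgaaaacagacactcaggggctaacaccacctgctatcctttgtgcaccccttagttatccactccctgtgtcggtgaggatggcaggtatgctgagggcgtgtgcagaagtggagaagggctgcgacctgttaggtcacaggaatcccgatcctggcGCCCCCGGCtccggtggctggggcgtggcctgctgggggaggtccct
Dsp: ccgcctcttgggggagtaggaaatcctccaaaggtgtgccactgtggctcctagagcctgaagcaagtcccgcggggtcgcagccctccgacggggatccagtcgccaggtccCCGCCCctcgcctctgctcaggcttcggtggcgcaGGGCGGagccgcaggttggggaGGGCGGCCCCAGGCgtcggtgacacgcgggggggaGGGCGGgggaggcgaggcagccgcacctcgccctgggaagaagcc

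Krt8-ps is a processed pseudogene of Krt8, and 22.0% of the 75-base words of Krt8 transcripts also occur in it. It reached 13.5 FPKM where Krt8 reached 431. How the authors' counting split reads between the copies was not tested, so the values of Krt8-ps, and its likeness to Krt8, are uncertain. For the other 8 members no gene outside the member's own locus held more than 0.258% of such words. Gm36026, a noncoding gene on the opposite strand, overlaps 101 exon bases at the 5′ end of Krt8; the counting is not stated to use strand, and Gm36026 did not exceed 1.19 FPKM. The genes that overlap exons of Krt7, Dsp and Dsg2 on the opposite strand did not exceed 0.134 FPKM.

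On GRCm38, the assembly of mm10, all 9 members are annotated as protein coding. Krt8 (chr15:101996698-102004482, minus strand) and Krt18 (chr15:102028180-102032027, plus strand) point away from each other, 23697 bases apart, and Krt7 (chr15:101411043-101430313, plus strand) lies in the same cluster of type II keratin genes, in which Krt18 is a type I exception. Krt19 (chr11:100140810-100148665, minus strand) lies in the type I cluster, on the same chromosome as Jup (chr11:100368958-100397763, minus strand). Dsp is at chr13:38151294-38198577 (plus strand) and Pkp2 at chr16:16213318-16272712 (plus strand). Dsc2 (chr18:20030633-20059554, minus strand) and Dsg2 (chr18:20558074-20604521, plus strand), the cadherins that both fell, lie in the cluster of desmosomal cadherin genes.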

How the data were processed

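RNA-seq of 22 libraries was analysed. The authors aligned reads to mm10 with STAR and deposited FPKM per gene from StringTie 2.1.4, normalized for transcript length and library total; read counts were not used here. Groups came from sample titles. Within each comparison, libraries were scaled by median-of-ratios factors, genes with at least 1 FPKM in at least 3 libraries were kept, and log2(FPKM + 1) was fitted with limma 3.58.1 in R 4.3.3 (lmFit, eBayes with trend), with Benjamini-Hochberg adjustment over all genes tested. KD and control were compared within a stage, control stages in 1 fit of 22 libraries, and the KD effects of morulae and blastocysts in 1 fit of 15. The fits were tested on simulated data. Alternatives were another pseudocount, no filter, no scaling, no trend, a replicate block, 1 fit of 22 libraries and libraries left out in turn. A batch term made from ranges of replicate numbers was used as well, since the labels name no batch. Members, gene lists and markers were chosen with earlier results of these data known. Named from each list were genes called in KD morulae or blastocysts and the 3 with the highest mean FPKM; Krt12, Dst, Vim, Afdn, Vcl, Tfap2c, Cdx2, Eomes, Ptx3, Fshr and Hbb-bt were named besides, after their values were seen. Of the 5 genes most like Dsp, 1 is not reported here. Of 55335 gene identifiers, 54587 matched GENCODE vM21 on GRCm38 in the same version. Python 3.11.15, numpy 2.4.6, pandas 2.3.3 and matplotlib 3.10.9 were used for levels, sequences and figures.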

Additional observations from a re-analysis of the deposited data

Results flagged for a closer look

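In groups of 4 libraries, 6 of 35 sets of member values had 1 library far from the other 3, where chance gives about 1 in 20 sets; 2 of the 6 are 1 value among zeros, to which that rate does not apply. Krt7 was 0.0249 FPKM in control 2-cell replicate 4 and 0 in the others, and Dsg2 0.0223 in control 2-cell replicate 5 and 0 in the others. Control 2-cell replicate 4 was lowest for Dsc2, at 0.248 FPKM. Control morula replicate 1 was highest for Pkp2, at 6.97, and for Dsg2, at 0.665. KD blastocyst replicate 1 was lowest for Krt7, at 1.57, still above all control libraries. The effect of the KD differed between blastocysts and morulae for Dsc2 (-1.10 on the log2 scale) and Dsg2 (-1.55), by a test of the difference itself; both had at least 1 FPKM in 0 of the 7 morula libraries and met the filter by way of blastocysts.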

How the results depend on the processing

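With a pseudocount of 0.1, 4 members were called in KD blastocysts in place of 2, since Krt7 (1.02) and Dsc2 (-1.06) moved past a log2 fold change of 1, and 6 in place of 3 between control 2-cell embryos and morulae; of all genes, 9.36% and 33.8% were then called higher and 11.6% and 36.0% lower. With libraries left out in turn, 1 to 2 members were called in KD blastocysts and 1 to 2 for the difference between the stages. Krt8 in KD morulae was -0.040 with FPKM as deposited and -0.13 to 0.23 with libraries left out, and Jup between 2-cell embryos and morulae was -0.013 to 0.33; neither passed in any of these. The passes of Dsc2 and Dsg2 between 2-cell embryos and morulae were lost in 6 and 4 of 26 alternatives. Those of Krt7, Krt18, Dsc2 and Dsg2 in KD blastocysts were kept in all 15. The cause of these shifts was not tested.

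The libraries share only replicate numbers: deviations of same-numbered libraries had a mean correlation of 0.146 at the 2-cell stage (lowest 0.0146), 0.138 in morulae and 0.0826 in blastocysts (lowest -0.11), and at no stage did every library correlate best with its own number, although all 3 KD libraries of the 2-cell stage did. In morulae, KD replicate 6 had correlations of 0.185 and 0.347 with control replicates 7 and 8 and of -0.278 and -0.207 with 1 and 2. With a replicate block, 1 member was called for the difference between the stages in place of 2 (Dsc2: adjusted p = 0.0564), Krt18 passed there (-0.89, adjusted p = 0.0483), Krt8 passed in KD blastocysts (adjusted p = 0.0242), and counts of calls within the stages were the same. With replicate numbers split by range into batches, Krt18 also passed for the difference (-0.83, adjusted p = 0.0330). Read depth is unknown, and values under 1 FPKM cannot be given a counting error.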
